A study of Rattus norvegicus with 53 samples.

Results

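Cytosolic ribosomal proteins are the proteins of the small and the large subunit of the ribosome that translates the mRNAs of the nucleus. The genes described here were found by symbol: a probe set was taken when the annotation of the array gave it a single gene symbol of the Rpl and Rps series, or Rplp0, Rplp1, Rplp2 or Rpsa, and each gene was represented by its probe set with the highest mean over all arrays. The rule found 42 genes, 13 of the small and 29 of the large subunit, with 48 probe sets among the 31099 of the array, of which 47 were among the 22143 probe sets tested. Rplp1 was measured only by a probe set with several symbols, and Rplp2 and Rps27a (a fusion of a ribosomal protein with ubiquitin) had no probe set that met the rule.

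L6, a rat skeletal muscle cell line, forms multinucleate myotubes in culture. The myotubes were kept without serum for 8 hours and then cultured with 20 nM insulin or, in parallel, without it (control). RNA of 3 samples taken 20 min apart was pooled by hour, giving time 0 and 8 hourly pools up to 480 min. The experiment was repeated on different days, and the letters a, b and c of the labels are taken here as these repeats. The 53 arrays fall into 18 groups of culture and time with 3 arrays each, except the insulin culture of hour 3, whose array of letter a was not analysed here, so hours 1 to 8 hold 23 insulin and 24 control arrays. L6 is a single cell line. Myotube markers were present, with Acta1, a skeletal muscle actin, at 13.48, Myh3, the embryonic myosin heavy chain, at 13.43 and Myog, the differentiation factor myogenin, at 12.37 on the log2 scale, while Myod1 lay at 4.12, below the level filter of 5. Of 24 listed myotube markers 21 passed that filter, at levels from 5.32 to 13.89. Of 20 markers of other cell types 6 passed it, and the highest of them lay at 6.57. The myotube markers Myh8 (5.32) and Tnnt1 (6.51) lay below that value.

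A ribosome carries 1 copy of nearly every ribosomal protein, and its genes are among the most strongly transcribed of growing cells. In mammals their mRNAs start with a C followed by a run of C and T, the 5′ terminal oligopyrimidine (TOP) motif, through which insulin and mTORC1 control mainly how well the mRNA is translated, with Larp1 as the protein that binds the motif. The array measures the amount of mRNA and not its translation.

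The motif was searched in RefSeq gene starts of the rat build GRCr8, as a C followed by at least 4 bases that are each C or T, on the strand of the gene, within 15 bases either side of the annotated start. The sequences that follow are of genes named with values in the results below. Each is the 30-base window, 5′ to 3′, with the first such run in capitals.
Rps13 (chr1:180009646-180009675, minus strand): gccgtttcctacctcgttCTCTCTTTgctt
Rps24 (chr16:96502-96531, plus strand): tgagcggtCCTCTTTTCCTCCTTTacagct
Rpl22 (chr5:168117946-168117975, plus strand): gtagtgcgCCCCCCTCCCTTTCTgcctcct
Rps28 (chr7:15311319-15311348, minus strand): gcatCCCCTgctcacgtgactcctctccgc
Rps6 (chr5:106420526-106420555, minus strand): gacgCCTCCTaggcggtcggctgtgtcaag
Rpl37a (chr9:81748076-81748105, plus strand): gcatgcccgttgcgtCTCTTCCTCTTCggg
Rpl41 (chr7:1563483-1563512, minus strand): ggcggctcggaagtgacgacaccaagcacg
The run of Rpl37a began exactly at the annotated start, that of Rps13 began at base 4 after it, and those of Rps24 and Rpl22 spanned it. The window of Rpl41 held none. Of the 42 genes 37 had an entry, and 29 of these (78.4%) held a run in the window, against 34.8% of all 33469 promoters of the table. A C at the annotated start followed by at least 4 bases that are each C or T, whatever lay before it, was found in 12 of the 37 genes (32.4%), against 2.63% of all promoters, and Rpl37a was the 1 gene among them whose run also began there. The match describes these letters only, and annotated starts can lie some bases off the starts used in the cells.

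Over the 8 hours of insulin the mRNAs of the ribosomal proteins as a set lay close to their control levels. By the limma test of the mean insulin minus control difference over hours 1 to 8, with p adjusted over all tested probe sets by Benjamini-Hochberg, 2 of the 42 genes were higher (Rps13 and Rpl30), 2 were lower (Rpl22 and Rps29) and 38 did not pass. Among all tested probe sets 5.47% were higher and 6.55% lower, so the share of 9.52% called in these genes lies near the background. The median difference of the 42 genes was 0.0041 on the log2 scale, the same as the median of 0.0041 of all tested probe sets. The 12 small subunit genes with bright probe sets had a median of -0.0054 (range -0.088 to 0.052) and the 26 of the large subunit a median of 0.0045 (range -0.11 to 0.049). Taken within letters, over the hours with both cultures, the medians of the 38 bright genes were -0.037, -0.0061 and 0.012 in letters a, b and c. Of the 38, 30, 20 and 17 were below 0 in these letters.

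**Figure D1:**
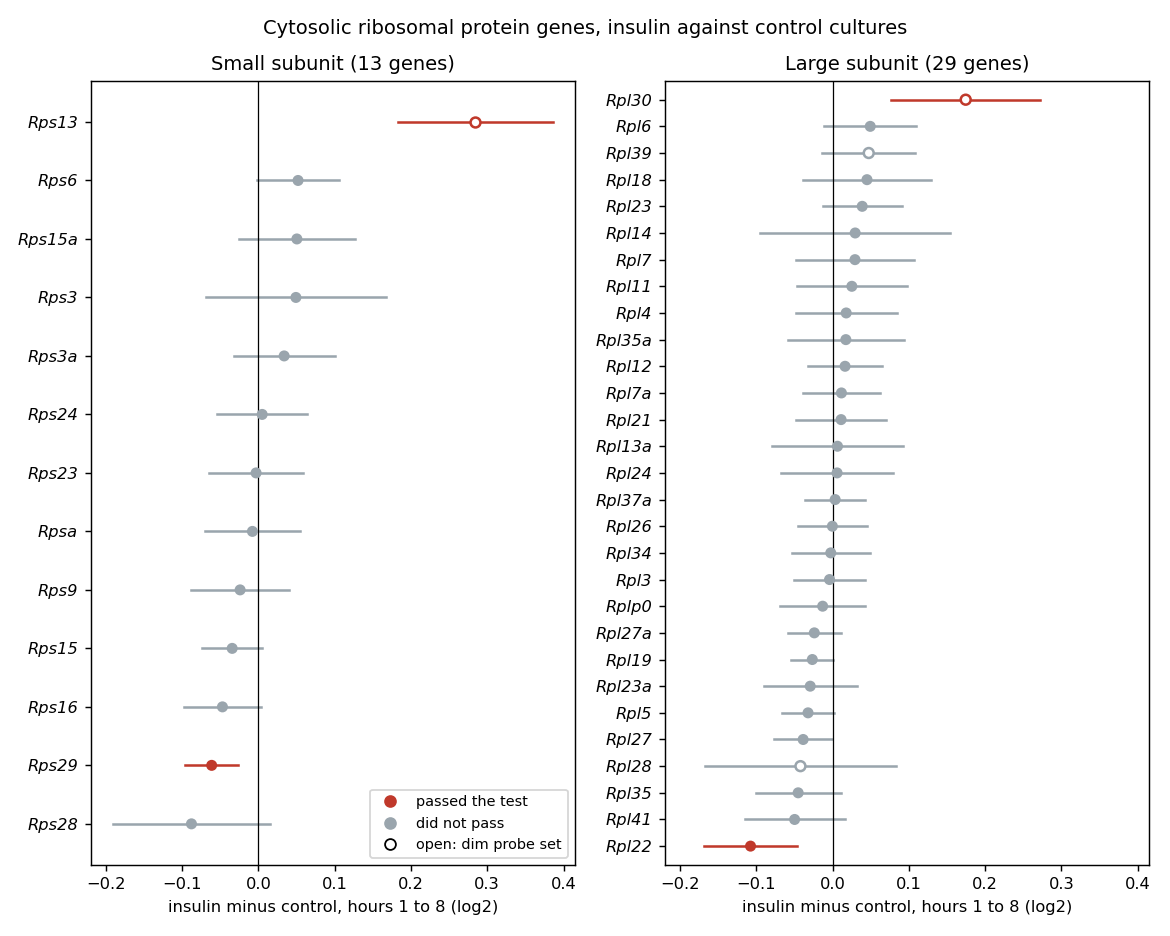
Insulin minus control difference of each gene, as the mean over hours 1 to 8 on the log2 scale (horizontal axis), with 95% confidence intervals as lines, small subunit genes on the left and large subunit genes on the right. Red genes passed the test after adjustment, and open points are the 4 genes whose only single-symbol probe set was dim. The intervals of most genes span 0, and both genes to the far right, Rps13 and Rpl30, are open points.

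A total of 38 genes had probe sets of mean level 12.5 to 13.9, above 98.9% of all tested probe sets at the lower end. The other 4 were represented by probe sets far dimmer, Rpl30 at 5.52, Rps13 at 5.72, Rpl39 at 7.21 and Rpl28 at 7.25. Rps29, Rpl27a, Rps6 and Rpl37a were the brightest, at 13.94, 13.88, 13.70 and 13.68. Over hours 1 to 8 the mean difference was -0.024 (SE 0.017) in Rpl27a and 0.0033 (SE 0.020) in Rpl37a. It was 0.047 (SE 0.030) in Rpl39 and -0.042 (SE 0.062) in Rpl28. None of these passed, at limma adjusted p of 0.404, 0.938, 0.339 and 0.714. Brightness of a probe set depends on its probes as well as on RNA, so these levels give no order of the mRNAs. The SE of the mean difference was between 0.014 and 0.062 in the bright genes, and for 27 of the 38 the 95% interval lay wholly within 0.1 of 0 on the log2 scale. The size of the mean difference had a median of 0.028 in the bright genes and 0.064 in all tested probe sets. It was 0.053 in the 380 other probe sets of mean level 12 or more, some of which are dimmer than every bright gene. Of those 380 probe sets 44 (11.6%) passed the test and 2 of the 38 bright genes (5.26%) did.

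Rps13, a small subunit protein that binds 18S RNA, had at its dim probe set levels of 5.66 (lowest), 5.82 (median) and 6.15 (highest) on the insulin arrays of hours 1 to 8, against 5.21, 5.57 and 5.84 on the control arrays. The ranges overlap, and the median of the insulin arrays lay just below the highest control array. Its mean difference was 0.28 on the log2 scale (SE 0.050, limma adjusted p = 0.000113), or 1.22-fold, with 0.33, 0.25 and 0.29 in letters a, b and c. Before insulin, at time 0, the cultures differed by 0.15 (SE 0.14), with 0.54, 0.20 and -0.30 in letters a, b and c. Relative to that time 0 difference the mean over hours 1 to 8 was 0.14 and did not pass (limma adjusted p = 1.00). With that subtraction 0 of all 22143 tested probe sets passed, so this result does not set Rps13 apart from the others.

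Rpl30, a large subunit protein known in yeast to restrain the splicing of its own transcript, had levels of 5.23 (lowest), 5.63 (median) and 5.92 (highest) on the insulin arrays of hours 1 to 8, against 5.24, 5.46 and 5.66 on the control arrays. The insulin range contains the whole control range and extends above it. The mean difference was 0.17 (SE 0.048, limma adjusted p = 0.0132), with 0.0072, 0.22 and 0.27 in letters a, b and c, and it no longer passed without letter b (0.15, adjusted p = 0.359) or without letter c (0.13, adjusted p = 0.119). Both Rps13 and Rpl30 also had a bright probe set that the annotation assigned to several symbols, and these gave -0.014 (SE 0.032, limma adjusted p = 0.828) for Rps13 at level 13.31 and -0.053 (SE 0.028, limma adjusted p = 0.239) for Rpl30 at level 13.25. With the letter of the cultures as a block in the fit, the bright probe set of Rpl30 passed as lower (limma adjusted p = 0.0265) and that of Rps13 did not pass (0.399). Rpl28 also had a bright probe set with several symbols, at level 13.07. It gave -0.083 (SE 0.039, limma adjusted p = 0.166 without the block and 0.0479 with it).

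Rpl22, a large subunit protein required for T cell development in the mouse, was the bright gene with the most negative mean difference. Its levels were 12.30 (lowest), 12.44 (median) and 12.65 (highest) on the insulin arrays of hours 1 to 8, against 12.36, 12.57 and 12.74 on the control arrays. The groups overlap over most of their range, and the difference was -0.11 (SE 0.030, limma adjusted p = 0.0140), or 1.08-fold lower, with 0.068, -0.20 and -0.17 in letters a, b and c. Rps29, a zinc-binding small subunit protein, was lower by a smaller amount, -0.061 (SE 0.017, limma adjusted p = 0.0149), with -0.0081, -0.11 and -0.060 in letters a, b and c. Neither passed without letter b or without letter c: Rpl22 then had -0.059 (adjusted p = 0.494) and -0.076 (adjusted p = 0.412), and Rps29 had -0.036 (adjusted p = 0.409) and -0.062 (adjusted p = 0.219). With each array centred on its own median neither passed either, at -0.091 (adjusted p = 0.0800) for Rpl22 and -0.044 (adjusted p = 0.199) for Rps29.

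Arrays of the same letter and hour were taken to come from cultures of the same day. With the letter as a replicate block the count was 4 higher and 8 lower of 42 (28.6%), where 11.6% of all tested probe sets were higher and 15% lower. The gains were Rpl6 (0.043, limma adjusted p = 0.0263) and Rps6 (0.047, limma adjusted p = 0.0347) among the higher genes. Rps28, Rps16, Rpl35, Rpl27, Rpl5 and Rpl27a joined the lower ones, with -0.098, -0.051, -0.051, -0.040, -0.035 and -0.027. All of these gains lay within 0.1 of 0 on the log2 scale. Rps6, the small subunit protein that S6 kinases phosphorylate downstream of insulin and mTORC1, had levels of 13.55 (lowest), 13.76 (median) and 13.83 (highest) on the insulin arrays, against 13.58, 13.67 and 13.78 on the control arrays, and in letter a its difference had the other sign (-0.043) from that in letters b (0.089) and c (0.080). Rpl5 and Rpl11, which with the 5S RNA form the particle that can also bind Mdm2, had mean differences without the block of -0.032 (SE 0.017, limma adjusted p = 0.229) and 0.025 (SE 0.035, limma adjusted p = 0.704). Rplp0, the base of the stalk that recruits elongation factors, had -0.013 (SE 0.027, limma adjusted p = 0.807).

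On the mean of hours 1 and 2 a subset of genes was lower with insulin in the fit with the letter as a block, and none without it. Over hours 1 and 2 the limma test without the block called 0 of the 42 genes, and 0% of all tested probe sets, while 1 gene above 0 and 8 below had an unadjusted p under 0.05. With the letter as a block 8 genes were lower, where 1.21% of all tested probe sets were, and each of the 8 was below 0 in all 3 letters. That fit, on these same arrays, favours genes whose letters agree, so the shared sign is no separate support. The bright genes also deviate together from array to array, as described below, so the 8 are not separate events. Rps28, a small protein near the mRNA exit of the small subunit, had the largest of these differences. At hour 1 it had 12.49, 12.73 and 12.70 in the insulin cultures of letters a, b and c, against 12.59, 13.12 and 12.99 in the control cultures. At hour 2 the values were 12.48, 12.75 and 12.68 with insulin, against 12.65, 13.07 and 12.96 in control. Within each letter the insulin array was the lower one at both hours, whereas across letters the control array of letter a lay below the insulin arrays of letters b and c. The difference over hours 1 and 2 was -0.26 (adjusted p = 0.0303 with the block in limma and 0.403 without it), and over hours 5 to 8 it was -0.0087 (limma adjusted p = 0.972 without the block).

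Rpl22 had -0.23 over hours 1 and 2 (limma adjusted p = 0.0321 with the block, 0.212 without) and -0.032 over hours 5 to 8. At hour 2 its insulin arrays read 12.30, 12.32 and 12.30 for letters a, b and c, against 12.54, 12.71 and 12.60 in control, with no overlap. At hour 1 they read 12.43, 12.42 and 12.37 with insulin, against 12.37, 12.70 and 12.60 in control, so that in letter a the insulin array was then the higher one, and over both hours together the groups overlap. The other 6 were Rpl23a (-0.18) and Rpl35 (-0.12), which line the exit of the peptide tunnel, Rpl41 (-0.18), the shortest of the ribosomal proteins, Rps16 (-0.15), Rps29 (-0.13) and Rps9 (-0.12), which serves decoding accuracy. Of the whole set of 38 bright genes 24 were below 0 and 14 above over these hours, with a median of -0.027. With 1 mean per letter and culture, in a fit that also holds the letter, 0 of the 42 genes passed over hours 1 and 2 by limma. At an unadjusted p under 0.05, 1 gene was above 0 and 6 below, and the limma adjusted p of Rps28 and Rpl22 was 0.508. That fit called 0 of all 22143 tested probe sets over these hours, so it cannot set these genes apart from the others. Differences between the cultures were also present at time 0, before insulin was added. All 8 genes were then above 0 in letter a (0.052 to 0.28), 6 of them were below 0 in letter b (all 8 from -0.25 to 0.0075) and 6 in letter c (all 8 from -0.22 to 0.020). The most negative of these values were those of Rps28 (-0.25) and Rpl22 (-0.21) in letter b and of Rpl23a (-0.22) in letter c.

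The same genes were compared between the early and the late hours. The change of the difference from hours 1 and 2 to hours 5 to 8 passed in 0 of the 42 genes by limma without the block, where 1.84% of all tested probe sets passed, with 6 genes at an unadjusted p under 0.05, all upward. With the block 7 genes changed upward, where 6.18% of all tested probe sets did: Rps28 (0.25, adjusted p = 0.0197 by limma), Rpl23a (0.23), Rpl22 (0.20), Rpl41 (0.19), Rps16 (0.13), Rps9 (0.13) and Rps23 (0.11), a protein of the decoding centre. None of the 7 passed by limma with 1 mean per letter and culture (Rps28 at an adjusted p of 0.260). In that fit 2 of the 42 genes were above 0 and 0 below at an unadjusted p under 0.05. Of all 22143 tested probe sets it called only 1 upward and 4 downward. Over hours 5 to 8 the differences of the bright genes lay between -0.041 and 0.061. Their median size was 0.019, against 0.052 in the other probe sets of mean level 12 or more. In these hours 1 of the 42 genes was higher (Rps13, 0.28, SE 0.070, limma adjusted p = 0.00637), where 3.98% of all tested probe sets were, and 0 were lower, where 5.27% were, with 3 genes above 0 and 0 below at an unadjusted p under 0.05. Rps13 did not pass over hours 5 to 8 without letter a (0.22, adjusted p = 0.0986) or without letter b (0.30, adjusted p = 0.0754). With the block Rpl30 (0.15, adjusted p = 0.0343) and Rpl18 (0.061, adjusted p = 0.0437) also passed by limma, 3 genes in all, where 9.26% of all tested probe sets were higher.

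**Figure D2:**
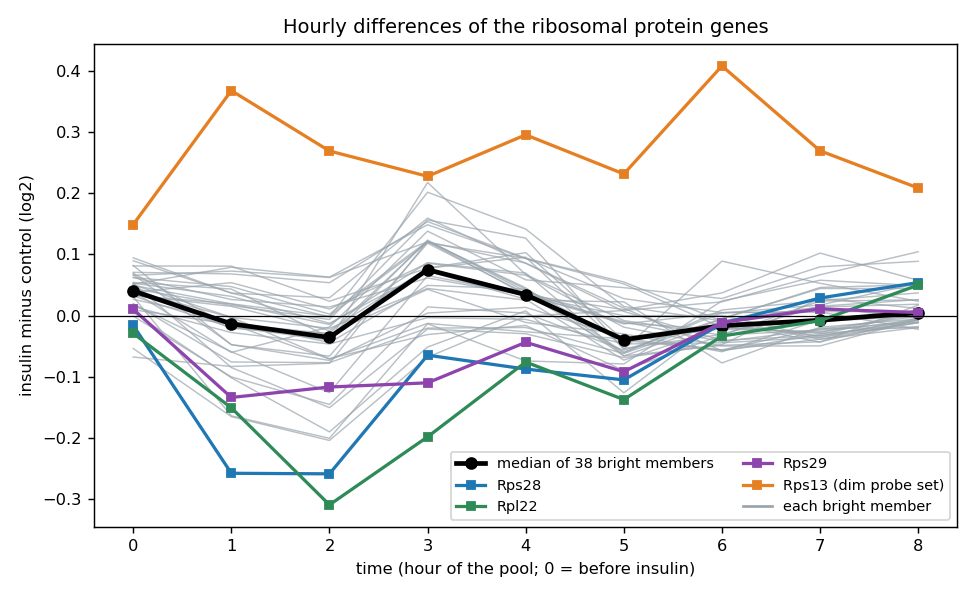
Insulin minus control difference on the log2 scale (vertical axis) at time 0 and in each hourly pool (horizontal axis), with a gray line for each of the 38 bright genes, their median in black, and Rps28, Rpl22, Rps29 and the dim probe set of Rps13 in colour. The lines of Rps28 and Rpl22 dip at hours 1 and 2 and return to 0, and the gray lines lie between -0.077 and 0.10 at hours 6 to 8, whereas Rps13 stays at 0.21 or more from hour 1 on.

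At single hours 0 of the 42 genes passed by limma at any of the 8 hours, without or with the block, and between 0 and 5 genes an hour had an unadjusted p under 0.05. Hour 3 stood out in the plot of hourly differences, with a median of 0.075 in the bright genes and 27 of 38 above 0. The insulin group of that hour has no array of letter a, the letter with the lowest levels of these genes. Within letters b and c alone the median at hour 3 was 0.0042, with 19 genes above 0 and 19 below.

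The bright genes deviated together from array to array. After the group means were removed, the median correlation between pairs of bright genes over the 53 arrays was 0.72 (703 pairs, from 0.14 at the 10th to 0.90 at the 90th percentile), a description of arrays that share a culture, a day and a normalization. Taken as the median of the bright genes on each array relative to their means over all arrays, letter a lay between -0.16 and -0.020 in the insulin cultures and between -0.14 and -0.020 in the control cultures. Letter b lay between 0.0013 and 0.072 in the insulin cultures and between -0.0061 and 0.087 in the control cultures, and letter c between -0.026 and 0.084 with insulin and between 0.023 and 0.082 in control. Every array of letter a was thus below 0, in both cultures. The SD within groups had a median of 0.099 in the bright genes, against 0.14 in the other probe sets of mean level 12 or more. In all tested probe sets it was 0.18.

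**Figure D3:**
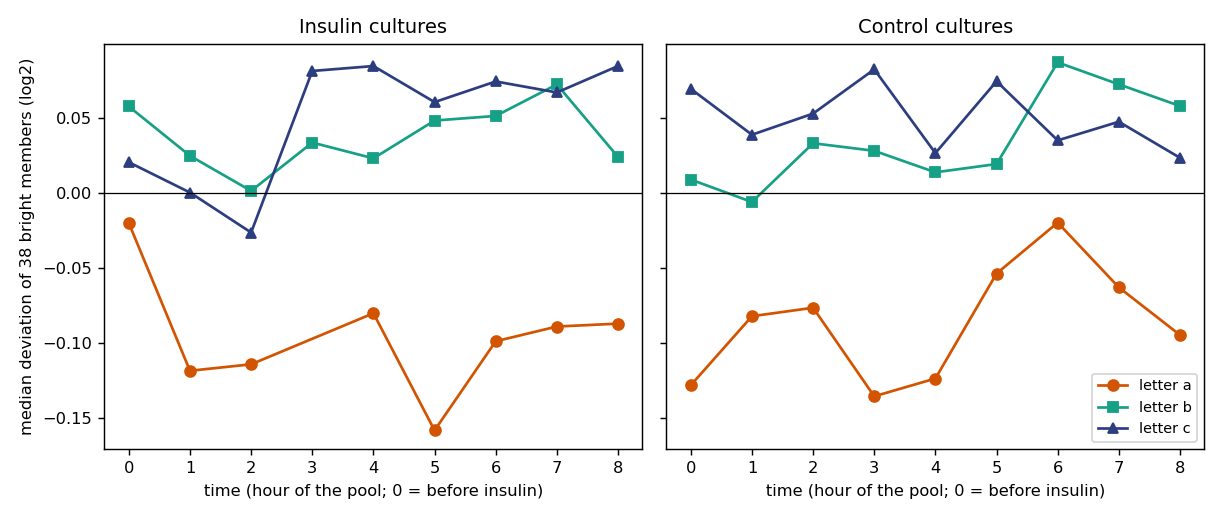
Median deviation of the 38 bright genes from their means over all arrays, on the log2 scale (vertical axis), for each array by hour (horizontal axis), with the insulin cultures on the left and the control cultures on the right, and a line for each letter. Letter a runs below 0 throughout in both cultures, and the insulin array of letter a at hour 3 is missing.

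Against their own time 0 the genes did not pass in either culture. In the insulin cultures, hours 5 to 8 minus time 0, 0 of the 42 genes passed by limma, where 1.44% of all tested probe sets did, with 0 at an unadjusted p under 0.05, 28 of the 38 bright genes below 0 and a median of -0.019. In the control cultures 0 passed, where 6.41% of all tested probe sets did, again with 0 at an unadjusted p under 0.05, 29 of 38 above 0 and a median of 0.034. Both medians were smaller in size than the difference of the cultures at time 0, before any insulin, when the insulin cultures were above the control cultures in 33 of the 38 bright genes, with a median of 0.040. At time 0, 0 of the 42 genes and 0% of all tested probe sets passed by limma, and 0 of the genes had an unadjusted p under 0.05. The time 0 difference had medians of 0.12, 0.052 and -0.042 in letters a, b and c.

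Among the 47 probe sets the largest difference was found at a second, dimmer probe set of Rps24, a small subunit protein whose mRNA is made in several splice forms. Its array values over hours 5 to 8 were 6.74 (lowest), 7.04 (median) and 7.78 (highest) with insulin, against 5.55, 6.28 and 6.75 in control, and at each of these hours the 3 insulin arrays lay above the 3 control arrays. The difference was 0.81 over hours 5 to 8 (SE 0.12, limma adjusted p = 1.34e-05), or 1.75-fold, and 0.61 over hours 1 to 8 (SE 0.089, limma adjusted p = 5.22e-06), or 1.53-fold. Letter a gave 1.19, letter b 0.77 and letter c 0.47 over hours 5 to 8. At time 0 the cultures differed by 0.71, -0.54 and 0.11 in letters a, b and c. Relative to time 0 the difference over hours 5 to 8 was 0.71 (SE 0.28) and did not pass (limma adjusted p = 0.600). With that subtraction only 6 of all 22143 tested probe sets were higher and 34 lower. In the control cultures the level over hours 5 to 8 was 0.53 below that of time 0, at a limma adjusted p of 0.103 without the block and 0.0369 with it, and in the insulin cultures it was 0.18 above (limma adjusted p = 0.887 without the block and 0.656 with it).

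The brightest probe set of Rps24, at a mean level of 13.64, gave a mean difference of 0.0050 over hours 1 to 8 (SE 0.029, limma adjusted p = 0.936) and -0.017 over hours 5 to 8 (SE 0.041). The study itself had selected the dim probe sets of Rps24 and Rps13 on these arrays, so their being high here is no independent evidence. Rpl7, a large subunit protein, also had a dimmer probe set that passed, at 0.32 over hours 1 to 8 (SE 0.10, limma adjusted p = 0.0354), with -0.32, 0.35 and 0.79 in letters a, b and c, while its bright one gave 0.029 (SE 0.038, limma adjusted p = 0.679). The dim probe set of Rpl7 did not pass without letter b (0.31, limma adjusted p = 0.338) or without letter c (0.073, limma adjusted p = 0.818). What these dim probe sets detect (another transcript form, a copy of the gene or other RNA) was not tested.

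**Figure D4:**
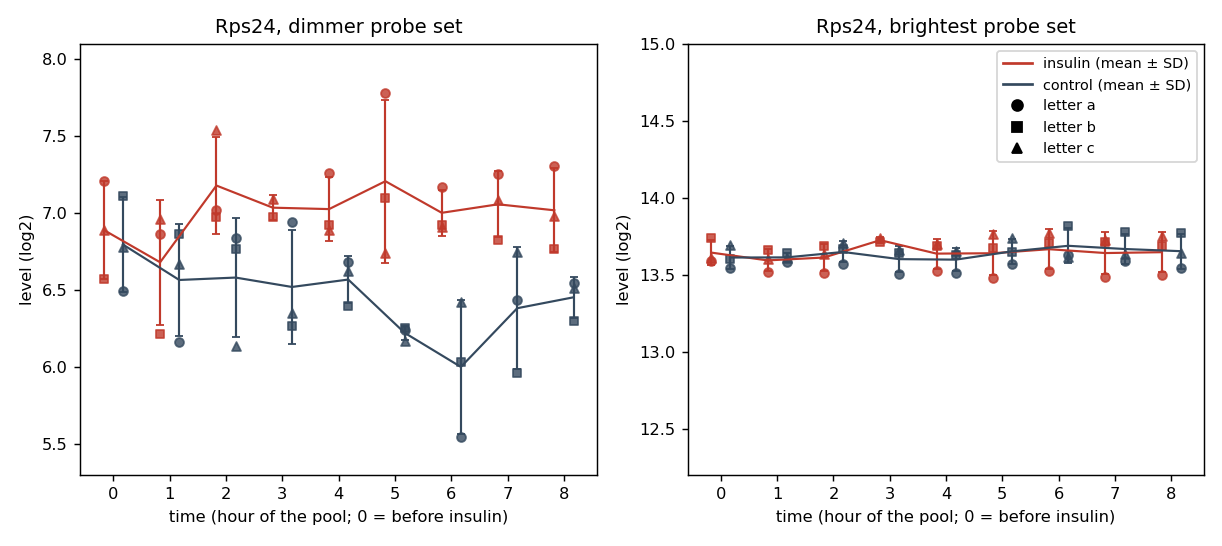
Level of Rps24 on the log2 scale (vertical axes, of the same span) by hour (horizontal axes) at its dimmer probe set on the left and its brightest on the right. Points are single arrays, with the letter as their shape, and lines give mean ± SD for insulin (red, drawn left) and control (dark). At the dimmer probe set the insulin arrays lie above the control arrays at hours 5 to 8, and at the brightest both cultures overlap throughout.

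Genes that build or regulate ribosomes were set beside the ribosomal proteins, in lists chosen with earlier results of these data known. Of 53 measured ribosome biogenesis factors 33 passed upward and 1 downward in the limma test of hours 1 to 8, with a median difference of 0.22. Dimt1, which methylates 18S RNA, was higher by 0.48 (SE 0.094, limma adjusted p = 0.000417) and Gar1, of the particles that form pseudouridine in RNA, by 0.45 (SE 0.079, limma adjusted p = 0.000110). Nop10 of the same particles was the one lower, at -0.13. Among 15 chaperones and importers of ribosomal proteins 5 were higher and 0 lower, with a median of 0.090: Heatr3 (0.26), Kpnb1, which encodes importin beta (0.24), Tsr2, the chaperone of Rps26 (0.16), Grwd1, which binds Rpl3 (0.15), and Ltv1, a small subunit assembly factor (0.11). Mitochondrial ribosomal proteins, built into the separate ribosome of mitochondria, had 4 of 73 higher and 4 lower, with a median of 0.020. Among all tested probe sets 5.47% were higher and 6.55% lower, so these mitochondrial counts lie near the background. The ribosomal protein genes thus had 2 of 42 higher beside 33 of 53 biogenesis factors, a contrast given as counts and not tested. The lists also lie at different levels, the biogenesis factors at 7.23 to 12.04 and the 38 bright ribosomal protein genes at 12.5 to 13.9. The highest value on any array was 14.51, and whether differences are compressed near the top of the scale was not tested. With the letter as a block 43 biogenesis factors were higher and 1 lower, and 8 chaperones and importers higher and 1 lower. Of the mitochondrial ribosomal proteins 12 were then higher and 8 lower. With the block 11.6% of all tested probe sets were higher and 15% lower.

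Other mRNAs known to start with a TOP motif had 1 of 19 higher and 2 lower (3 and 2 with the block), with a median of 0.023. For this and the following lists, 5.47% of all tested probe sets were higher and 6.55% lower. With the block the shares were 11.6% and 15%. Eef2, elongation factor 2, was lower by the limma test at -0.18 (adjusted p = 0.00855), Eif3f, a subunit of initiation factor 3, at -0.19 (adjusted p = 0.000117), and Gas5, a spliced host RNA of small nucleolar RNAs, was higher at 0.25 (adjusted p = 0.00353). Rack1, a protein of the small subunit that the rule leaves out, had -0.019 (SE 0.018, limma adjusted p = 0.555). Of 5 measured relatives only Rps27l, a paralogue of Rps27, passed, at 0.26 (SE 0.076, limma adjusted p = 0.0175), and Rpl3l, the striated muscle paralogue of Rpl3, lay at a level of 5.58 with a difference of 0.0023. Among 11 regulators of translation or ribosome production 2 were higher and 1 lower (3 and 3 with the block). Of these Myc was higher at 0.61 (limma adjusted p = 0.000289) and Eif4ebp1, a repressor of cap-dependent translation, at 0.16 (limma adjusted p = 0.00303), and Maf1, a repressor of RNA polymerase III, was lower at -0.48 (limma adjusted p = 4.18e-09). Larp1, the binder of the TOP motif, had 0.082 (SE 0.082, limma adjusted p = 0.576). Myotube markers had 0 of 21 called by limma without the block and 7 lower with it, and their part in the early differences was not tested.

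**Figure D5:**
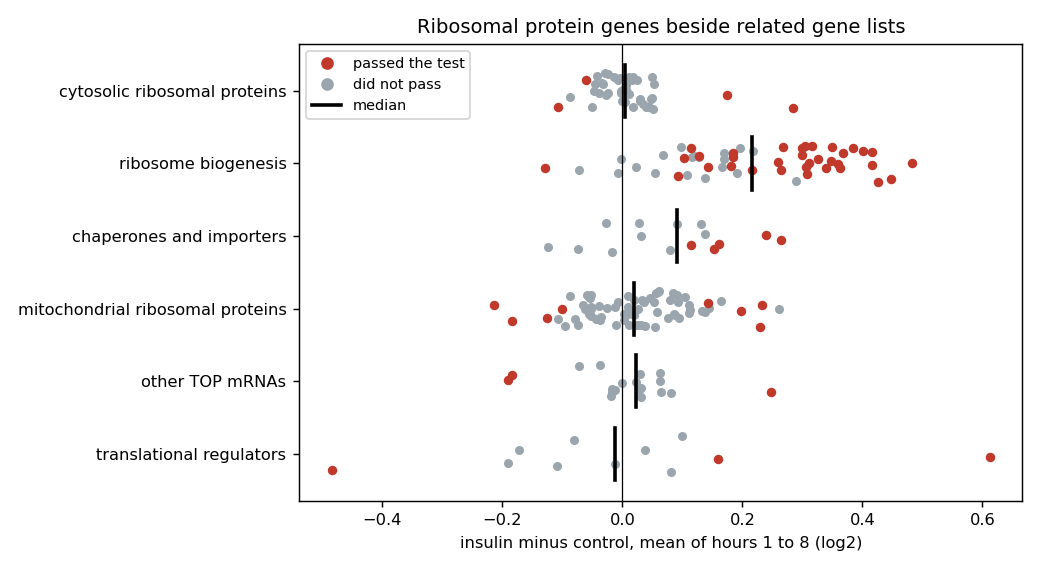
Insulin minus control difference of single genes, as the mean over hours 1 to 8 on the log2 scale (horizontal axis), in the ribosomal protein genes (top) and in 5 related lists, with genes that passed the limma test in red and the median of each list as a black line. Ribosomal protein genes crowd around 0, with a median of 0.0041, and biogenesis factors spread to the right, with a median of 0.22.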

How the data were processed

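RNA of L6 myotubes was measured on Affymetrix rat arrays. Per the methods, the authors removed background, normalized arrays by quantiles and combined the probes of a set by RMA, and they deposited log2 levels for 31099 probe sets. Tool versions are not given in the sources used here. A change shared by most genes cannot be seen after quantile normalization. The number of arrays limits the precision. Culture, hour and letter came from the labels, and the last pool, for which 1 label field gives an earlier time, was taken to end at 480 min.

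The 22143 probe sets with a mean log2 level of 5 or more, without the manufacturer's controls, were fitted with 1 mean per group and a variance trend in limma 3.58.1 (R 4.3.3). Tests were two-sided, and Benjamini-Hochberg adjustment was made over all of these probe sets, with a threshold of 0.05. Differences are insulin minus control, with SE and 95% intervals from the fit. The fit was also run on simulated arrays with independent noise. Those lack the deviations that real arrays of a letter share, so they do not test these intervals. The letters come from the labels and the repeats on different days from the methods. That a letter stands for the same repeat in both cultures and at all hours was assumed. Paired arrays (1 letter and hour, both cultures) had deviations from the group means that correlated at 0.21 to 0.79 in all 26 pairs, and where the letter as a replicate block changes the call of a gene described or a count over a list its value is given. Different hours of a letter are treated as independent. The p-values and intervals of the fits on single arrays measure the spread between arrays, pooled over the 18 groups. Only the fit with 1 mean per letter and culture measures the spread over the 3 repeats of 1 cell line. That fit, by limma over hours 1 to 8, gave adjusted p of 0.0446 (Rps13), 0.275 (Rpl30), 0.474 (Rpl22) and 0.425 (Rps29). Over these hours it called 51 of all tested probe sets higher and 104 lower.

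Of the probe sets 20832 carry 1 symbol in the platform annotation, 436 several and 9831 none. Genes given with full values were those that passed, the 4 with the highest and the 4 with the lowest level, genes whose probe sets differ in call, those the study listed and those of fixed role. Members and lists were chosen with earlier results of these data known. Genes that passed only with the block were named after their values were seen. Promoter windows are from RefSeq (GRCr8). Alternatives were the block, 1 mean per letter and culture, leaving out each letter, leaving out letter b at hours 0 to 5, no level filter, arrays centred on their median, no variance trend, every probe set of a gene and subtraction of the time 0 difference. Allowing probe sets with several symbols was chosen after seeing the data.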

Additional observations from a re-analysis of the deposited data

Results flagged for a closer look

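Against time 0, the dimmer probe set of Rps24 was higher over hours 5 to 8 in the insulin cultures of all 3 letters (mean 0.18 on the log2 scale) and lower in the control cultures of all 3 letters (-0.53). The opposite courses drew attention here, and the difference between them was 0.71 (SE 0.28) and did not pass by limma (adjusted p = 0.600). Few probe sets passed that comparison of the courses, 6 of all 22143 tested higher and 34 lower. Rpl12, a large subunit protein near the base of the stalk, was lower in all 3 insulin cultures (-0.072) and higher in all 3 control cultures (0.047), with a difference between the courses of -0.12 (SE 0.075, limma adjusted p = 0.984). Rpl27a had -0.038 with insulin and 0.052 in control in the same way, with a difference of -0.089 (SE 0.053, limma adjusted p = 0.965). Groups of 3 arrays are too small to single out an outlying array.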

How the results depend on the processing

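Over hours 1 to 8, limma called 2 genes higher and 2 lower. With the replicate block the counts were 4 and 8, with 1 mean per letter and culture 1 and 0, 1 and 0 when letter b was left out at hours 0 to 5, and after subtraction of the time 0 difference 0 and 0. Arrays centred on their median left 2 higher and 0 lower, every probe set of the genes gave 4 genes higher and 2 lower, and allowing probe sets with several symbols gave 0 higher and 2 lower, since Rps13 and Rpl30 are then represented by their bright probe sets. Leaving out 1 letter gave 1 to 6 higher and 0 to 7 lower, the largest counts without letter a. The counts over all 22143 tested probe sets also moved. They were 1212 higher and 1450 lower in the main fit, 2572 and 3324 with the replicate block, and 1866 and 2323 without letter a. Without letter b they were 210 and 465, and without letter c 579 and 696. With 1 mean per letter and culture 51 and 104 passed, and after subtraction of the time 0 difference 0 and 0. Over hours 5 to 8 the 1 gene higher became 3 with the replicate block and 0 with 1 mean per letter and culture. The count became 2 with every probe set, 0 after subtraction of time 0, 0 with several symbols allowed, and 0 to 1 without 1 letter. Of all tested probe sets 882 were higher in the main fit and 2051 with the replicate block. With 1 mean per letter and culture 276 were higher, and after subtraction of time 0 only 6. Over hours 1 and 2 the 0 lower became 8 with the replicate block and stayed 0 with 1 mean per letter and culture. Without 1 letter the count was 0 to 7, 7 being the count without letter a. Of all tested probe sets 0 were lower in the main fit and 267 with the replicate block. Without letter a 299 were lower, and with 1 mean per letter and culture 0. For the change from the early to the late hours the 0 upward became 7 with the replicate block and 0 to 1 without 1 letter. With 1 mean per letter and culture the count stayed 0. Of all tested probe sets 206 changed upward in the main fit and 1368 with the replicate block. With 1 mean per letter and culture 1 did. The causes of these shifts were not tested, apart from the symbol rule. With several symbols allowed the difference over hours 1 to 8 changed sign in Rps13 (-0.014) and Rpl30 (-0.053), which had passed. Under the settings that keep the same probe set, the named differences that changed sign had not passed. The filter on low values and the variance trend changed no count. Signal over background limits Rps13, Rpl30, Rpl39 and Rpl28, whose levels of 5.52 to 7.25 lie far below the others.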

Other observations

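Another 33 probe sets carried several symbols of which at least 1 belongs to a cytosolic ribosomal protein (2 in 1 probe set), and they name 27 genes that had no single-symbol probe set. By the limma test over hours 1 to 8, 0 of the 33 were higher and 1 lower, with differences from -0.12 to 0.092 and a median of -0.0092. With the letter as a block 2 were higher, both of Rps2, and 10 lower. Of all tested probe sets 5.47% were higher and 6.55% lower without the block, and 11.6% and 15% with it. The one that passed without the block was that of Rps18, a small subunit protein, at -0.096 (SE 0.032, limma adjusted p = 0.0417). Its early difference (hours 1 and 2) was -0.25 and its late one (hours 5 to 8) -0.012. The probe set shared by Rpl30 and Rps10 had -0.32 early and 0.019 late, and that of Rpl38 had -0.19 early and -0.017 late, none of which passed without the block. Rplp1, a stalk protein, had -0.020 over hours 1 to 8 (SE 0.023, limma adjusted p = 0.634), and Rps19, a gene mutated in Diamond-Blackfan anaemia, had -0.032 (SE 0.023, limma adjusted p = 0.407 without the block and 0.0322 with it). In these probe sets the mRNA of the named gene and that of its near-identical copies cannot be told apart.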
